A study of Mus musculus with 12 samples.

Results

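The genes of the Hippo pathway and its YAP/TAZ targets were followed in cultured mouse mammary epithelial cells. The group holds 35 genes of the 28427 rows in the gene tables, found by their mm9 symbols. Of these, 22 are target genes whose RNA level is used to read YAP and TAZ activity, and 13 are parts of the pathway itself. Lats2 stands among the targets but also acts in the pathway, so it is counted again among the 10 core parts set against the targets below. The genes were chosen by name and not by their values in these libraries, though with earlier results of these data known. All 35 passed the filter on low counts.

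In the Hippo pathway, the kinases MST1 and MST2 (genes Stk4 and Stk3), with the scaffold SAV1, act on the kinases LATS1 and LATS2. These kinases phosphorylate YAP (Yap1) and TAZ (Wwtr1), co-activators that are then kept in the cytoplasm or degraded. Unphosphorylated YAP and TAZ enter the nucleus and act through the DNA-binding factors TEAD1 to TEAD4. Spread cells on stiff substrates are known for high YAP/TAZ activity, and rounded cells in soft gels for low activity. In the mammary gland, YAP and TAZ are known from work on stem and basal cells. RNA levels report neither the phosphorylation nor the location of YAP and TAZ.

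The cells had a C57BL/6 background, and no transgene or mutation is named. The 4 groups, with 3 libraries each, were spheroids at 96 h, monolayers at 96 h, spheroids at 48 h and monolayers at 48 h. Spheroids grew inside Matrigel, a soft gel of basement membrane proteins, and monolayers grew on dishes coated with collagen, so format and matrix cannot be told apart. All groups received progesterone and prolactin, the hormones of pregnancy and milk production. The series calls the replicates biological; whether they came from separate animals is not given, so p-values measure the spread between these cultures. Levels are counts scaled to library size (CPM, with TMM scaling), and calls are from edgeR's quasi-likelihood test over 13951 genes at a Benjamini-Hochberg adjusted p under 0.05.

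Library totals lay between 7674105 and 13554497 counts. Replicates were farther apart than sampling of reads gives. The chi-square divided by its degrees of freedom ran from 2.41 to 17.2, with its maximum between 48 h monolayer replicates 1 and 3. None of the 10 epithelial markers was at 0 in any group, and their summed level was 6900 to 7230 CPM in 96 h spheroids, 5040 to 5430 CPM in 96 h monolayers, 6710 to 7220 CPM in 48 h spheroids and 11700 to 13400 CPM in 48 h monolayers. Fibroblast markers were present too, with none of 12 at 0. Their summed level was 933 to 989 CPM in 96 h spheroids, 2420 to 3510 CPM in 96 h monolayers, 2720 to 2970 CPM in 48 h spheroids and 10500 to 11400 CPM in 48 h monolayers. In bulk libraries, fewer cells of a type and less RNA per cell cannot be told apart.

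The first question was how the targets differed between spheroids and monolayers. At 96 h, 16 of the 22 targets were lower in spheroids, 2 were higher and 4 did not pass the test. Across all genes tested at 96 h, 73.8% changed, with 36.5% lower and 37.3% higher. At 48 h, 20 of the 22 targets were lower in spheroids and 2 were higher, against 57.9% of all genes changed, with 26.4% lower and 31.6% higher. The median log2 change of the targets was -0.93 at 96 h and -1.28 at 48 h, beside all-gene medians of 0.00 and 0.05. The targets that were more than 2-fold lower numbered 11 at 96 h and 13 at 48 h, and no target was more than 2-fold higher at either time. The share of all genes past 2-fold was not computed, so these counts have none beside them. Format groups did not overlap for 19 targets at 96 h, beside 78.9% of all genes, and for 21 at 48 h, beside 60% of all genes. The fibroblast marker sum was lower in spheroids at each time as well, though 3 of the 12 markers were higher at 96 h and 4 at 48 h. In 48 h monolayers most of that sum was Col1a1 (mean 4030 CPM), Col1a2 (3060 CPM) and Postn (2630 CPM). The part of the fibroblast markers in these counts was not tested.

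Ctgf and Cyr61 encode secreted matrix-associated proteins and are the targets most often used to read YAP/TAZ activity. Ctgf stood at 99.7, 109 and 111 CPM in the 96 h spheroids, against 1255, 1429 and 1698 CPM in the 96 h monolayers. Its 48 h levels were 115.5, 114 and 125 CPM in the 48 h spheroids, against 3260.0, 3398 and 3810.0 CPM in the 48 h monolayers. The monolayer libraries were the high ones at both times and no library overlapped. Ctgf was thus 13.7-fold lower in spheroids at 96 h (log2 change -3.78 ± 0.105 SE, adjusted p = 7.23e-16) and 29.5-fold lower at 48 h (log2 change -4.88 ± 0.111 SE, adjusted p = 6.97e-17). Cyr61 stood at 229, 240.3 and 253 CPM in the 96 h spheroids, against 607, 638.5 and 596 CPM in the 96 h monolayers. At the earlier time it had 262.5, 258 and 269 CPM in the 48 h spheroids, against 1971, 1936 and 2216 CPM in the 48 h monolayers. Again all 6 spheroid libraries lay below all 6 monolayer libraries, and Cyr61 was 2.55-fold lower at 96 h and 7.76-fold lower at 48 h (adjusted p = 3.89e-12 and 2.47e-16).

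Ankrd1, a nuclear ankyrin-repeat protein, gave the largest format difference of the 35 genes at 48 h. At 96 h Ankrd1 had 22.2, 25.6 and 25.3 CPM in the 96 h spheroids, against 122, 118.5 and 115.5 CPM in the 96 h monolayers, a 4.88-fold lower level (adjusted p = 1.23e-14). At 48 h its levels were 11.1, 11.6 and 9.57 CPM in the 48 h spheroids, against 329.9, 339.5 and 376 CPM in the 48 h monolayers, a 32.4-fold lower level (log2 change -5.02 ± 0.0909 SE, adjusted p = 4.83e-18). The groups did not overlap at either time, and the gap was narrower at 96 h from both sides: spheroids were higher than at 48 h and monolayers lower.

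**Figure D1:**
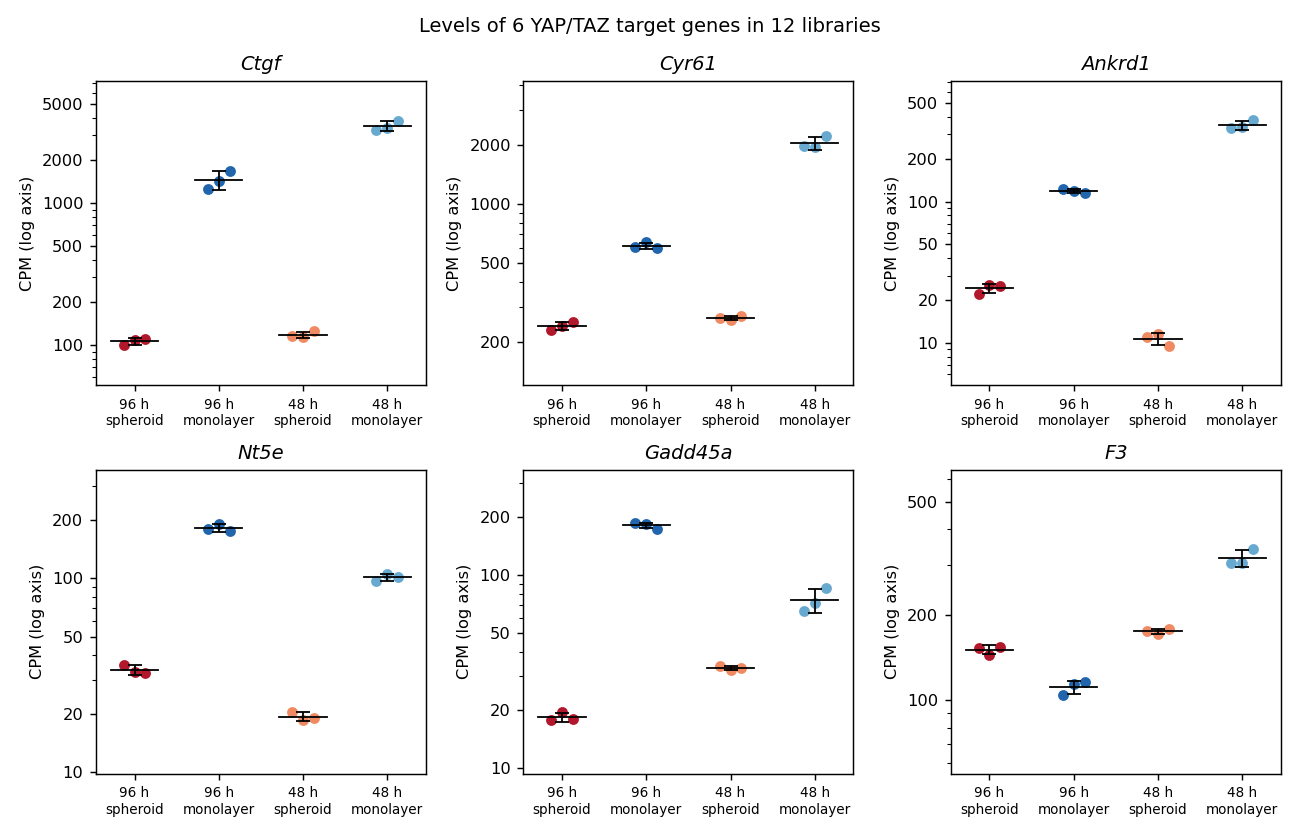
Levels of 6 YAP/TAZ targets in CPM on log axes, with 1 point per library and bars for the mean and SD of 3 libraries in each of 4 groups. The spheroid libraries lie below the monolayer libraries of the same time for Ctgf, Cyr61, Ankrd1, Nt5e and Gadd45a, while F3 is higher in spheroids at 96 h and lower at 48 h.

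Several targets feed back on the pathway. Amotl2, an angiomotin-family scaffold that binds YAP at cell junctions, had 87.8, 91.2 and 88.0 CPM in the 96 h spheroids, against 183, 192 and 201 CPM in the 96 h monolayers. At 48 h Amotl2 had 85.8, 87.9 and 94.2 CPM in the 48 h spheroids, against 373, 326.5 and 333.5 CPM in the 48 h monolayers. It was 2.16-fold lower at 96 h and 3.86-fold lower at 48 h, with no overlap (adjusted p = 4.9e-11 and 4.08e-14). Its relative Amotl1 differed less. Amotl1 had 205, 204 and 205 CPM in the 96 h spheroids, against 254, 263 and 292 CPM in the 96 h monolayers, a 1.32-fold lower level (adjusted p = 0.000579). At 48 h it had 208, 202 and 213 CPM in the 48 h spheroids, against 399.9, 356 and 290.0 CPM in the 48 h monolayers, a 1.68-fold lower level (adjusted p = 9.85e-07). Spheroid libraries of Amotl1 were tightly grouped, and the 48 h monolayer libraries were spread, with no overlap between formats.

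Lats2, the kinase that phosphorylates YAP and is itself induced by it, had 50, 45.4 and 47.4 CPM in the 96 h spheroids, against 149, 141 and 154 CPM in the 96 h monolayers. At 48 h its levels were 50.5, 49.9 and 53.1 CPM in the 48 h spheroids, against 146, 128 and 129 CPM in the 48 h monolayers. The formats did not overlap, and Lats2 was 3.11-fold lower in spheroids at 96 h and 2.62-fold lower at 48 h (adjusted p = 2.43e-13 and 5.68e-12). Ptpn14, a phosphatase that binds YAP and holds it out of the nucleus, was lower at neither time. At 96 h Ptpn14 had 79.2, 77.0 and 78.6 CPM in the 96 h spheroids, against 69.1, 68.3 and 72.9 CPM in the 96 h monolayers, which did not pass the test (adjusted p = 0.154) though the groups did not overlap. At 48 h it had 68.3, 66.2 and 71.0 CPM in the 48 h spheroids, against 67.3, 53.9 and 44.1 CPM in the 48 h monolayers and was 1.25-fold higher in spheroids (adjusted p = 0.0124), although the groups overlapped. Without replicate 3 of the 48 h monolayers, its 48 h log2 change was 0.18 and its adjusted p = 0.0609, and a fit of the 6 libraries compared gave 0.28 (adjusted p = 0.0767). Jub (Ajuba), a LIM protein that restrains LATS, was not called at 96 h and was 1.47-fold lower at 48 h (adjusted p = 1.06e-06).

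Axl, Nt5e and F3 encode cell-surface proteins. Axl, a receptor tyrosine kinase for the ligand GAS6, had 185, 173 and 173 CPM in the 96 h spheroids, against 260.4, 283 and 349.7 CPM in the 96 h monolayers. At 48 h Axl had 243, 251 and 233 CPM in the 48 h spheroids, against 732, 688.5 and 699 CPM in the 48 h monolayers. No library overlapped, and Axl was 1.68-fold lower at 96 h and 2.91-fold lower at 48 h (adjusted p = 3.08e-07 and 2.4e-11). Nt5e, the enzyme CD73 that makes extracellular adenosine, had 35.9, 32.9 and 32.5 CPM in the 96 h spheroids, against 181, 191 and 175 CPM in the 96 h monolayers. Its 48 h values were 20.5, 18.6 and 18.9 CPM in the 48 h spheroids, against 97.1, 106 and 101 CPM in the 48 h monolayers. Nt5e was 5.40-fold lower at 96 h and 5.22-fold lower at 48 h, nearly the same ratio at levels that were higher at 96 h in both formats.

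F3 encodes tissue factor, the cell-surface starter of blood coagulation. At 96 h F3 had 153, 145 and 155 CPM in the 96 h spheroids, against 105, 114 and 116 CPM in the 96 h monolayers, a 1.35-fold higher level in spheroids (log2 change 0.44 ± 0.0670 SE, adjusted p = 1.07e-05). At 48 h it had 175, 172 and 179 CPM in the 48 h spheroids, against 303, 304 and 341.5 CPM in the 48 h monolayers, a 1.80-fold lower level (log2 change -0.85 ± 0.0656 SE, adjusted p = 2.27e-09). F3 was the only one of the 35 genes called in opposite directions at the 2 times, and its groups did not overlap at either. Monolayers were its lowest group at 96 h and its highest at 48 h.

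Gadd45a, a stress-response gene also induced by p53, had 17.7, 19.4 and 17.9 CPM in the 96 h spheroids, against 185.5, 184 and 174 CPM in the 96 h monolayers, a 9.88-fold lower level (log2 change -3.30 ± 0.0900 SE, adjusted p = 5.55e-16). At 48 h it had 33.7, 32.1 and 32.8 CPM in the 48 h spheroids, against 65.1, 72.2 and 85.9 CPM in the 48 h monolayers, a 2.26-fold lower level (adjusted p = 1.58e-09). The formats did not overlap, and the 96 h monolayers were the highest group. Fjx1, the mammalian four-jointed protein, had 1.38, 0.741 and 2.08 CPM in the 96 h spheroids, against 12.2, 13.8 and 15.9 CPM in the 96 h monolayers and was 9.77-fold lower (adjusted p = 1.2e-10). At 48 h Fjx1 had 3.50, 3.82 and 2.89 CPM in the 48 h spheroids, against 17.1, 14.4 and 15.1 CPM in the 48 h monolayers and was 4.54-fold lower (adjusted p = 1.54e-08). Fjx1 was low in all spheroid libraries.

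Ccdc80, a secreted matrix protein, had 13.2, 9.05 and 10.2 CPM in the 96 h spheroids, against 48.9, 52.0 and 81.0 CPM in the 96 h monolayers and was 5.59-fold lower (adjusted p = 2.83e-10). At 48 h Ccdc80 had 42.9, 35.2 and 43.3 CPM in the 48 h spheroids, against 301, 273 and 294 CPM in the 48 h monolayers and was 7.13-fold lower (adjusted p = 6.83e-12). The 48 h monolayers stood far above the other groups. Foxf2, a forkhead transcription factor, was near the detection floor, with a floor of 3 counts per library equal to 0.223 to 0.376 CPM. It had 0.229, 0.247 and 0.520 CPM in the 96 h spheroids, against 2.72, 1.75 and 3.44 CPM in the 96 h monolayers, a 7.80-fold lower level (adjusted p = 3.33e-06). Its 48 h levels were 1.23, 1.04 and 1.00 CPM in the 48 h spheroids, against 2.06, 1.49 and 3.13 CPM in the 48 h monolayers, 2.01-fold lower (adjusted p = 0.023). The groups did not overlap, but the 48 h call was lost when 48 h monolayer replicate 3 was dropped (log2 change -0.68, adjusted p = 0.142), and likewise for 48 h spheroid replicate 2 (-0.98, 0.061) or 3 (-0.95, 0.0671).

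The other 7 targets follow. Rbms3, an RNA-binding protein, was 2.28-fold lower at 96 h and 3.74-fold lower at 48 h. Crim1, a transmembrane protein that binds BMP ligands, was 1.33-fold and 1.82-fold lower at those times, and Asap1, an Arf GTPase-activating protein, 1.50-fold and 1.25-fold lower. The 48 h difference of Asap1 missed the threshold under total-count scaling (log2 change -0.21, adjusted p = 0.0507) and in limma (-0.19, 0.0789). Nuak2, an AMPK-related kinase, was 1.22-fold lower at 96 h (adjusted p = 0.0267) and 2.73-fold lower at 48 h (adjusted p = 1.45e-09). Its 96 h groups overlapped, and that call was lost without replicate 2 (adjusted p = 0.0654) or 3 (0.184) of the 96 h monolayers and without replicate 2 (0.123) or 3 (0.0689) of the 96 h spheroids, with log2 changes from -0.28 to -0.18. The guanine nucleotide exchange factors Arhgef17 and Dock5 were lower at 48 h and not called at 96 h (1.31-fold and 1.42-fold). Myof, a ferlin of membrane repair, was higher in spheroids at both times, by 1.37-fold at 96 h (adjusted p = 0.000136) and 1.23-fold at 48 h (adjusted p = 0.00624).

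**Figure D2:**
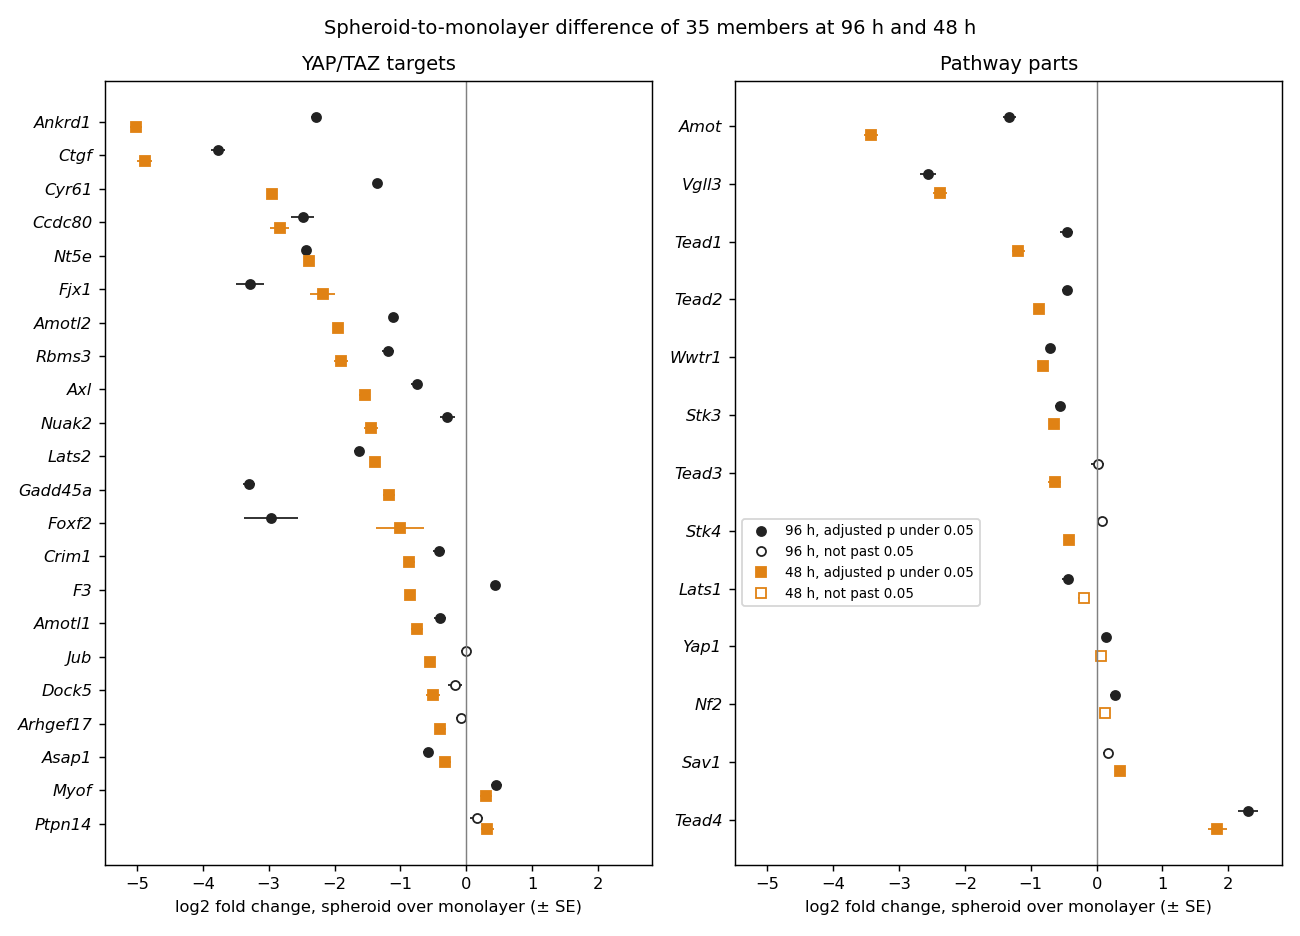
Log2 fold change of spheroids over monolayers with its SE for 22 targets and 13 pathway parts, as circles at 96 h and squares at 48 h, filled where the adjusted p was under 0.05. Most targets lie left of 0, from -5.02 (Ankrd1 at 48 h) to 0.45 (Myof at 96 h), and Tead4 is the part farthest to the right.

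Promoter sequences are shown for Ankrd1, Cyr61 and Amotl2, which were lower in spheroids at both times, and for F3, which turned. They come from RefSeq on build GRCm38.p6, another build than the mm9 of the gene tables, and are the 250 bases before an annotated start, written 5′ to 3′ on the gene's strand. Capitals mark GGAATG or its reverse complement CATTCC, the core of the TEAD motif, and, in F3, TGANTCA, the AP-1 motif, which reads the same on both strands.
Ankrd1 (chr19:36119845-36120094, minus strand): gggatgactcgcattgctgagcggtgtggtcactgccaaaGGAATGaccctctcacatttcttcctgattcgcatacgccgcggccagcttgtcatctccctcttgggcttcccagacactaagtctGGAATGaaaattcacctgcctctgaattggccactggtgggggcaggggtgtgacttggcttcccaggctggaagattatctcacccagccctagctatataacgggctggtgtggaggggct
Cyr61 (chr3:145649986-145650235, minus strand): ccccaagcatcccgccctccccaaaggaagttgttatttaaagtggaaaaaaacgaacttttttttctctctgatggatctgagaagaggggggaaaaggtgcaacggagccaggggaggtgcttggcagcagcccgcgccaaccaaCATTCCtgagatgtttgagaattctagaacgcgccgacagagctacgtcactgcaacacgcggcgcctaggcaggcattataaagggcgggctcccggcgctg
Amotl2 (chr9:102717554-102717803, plus strand): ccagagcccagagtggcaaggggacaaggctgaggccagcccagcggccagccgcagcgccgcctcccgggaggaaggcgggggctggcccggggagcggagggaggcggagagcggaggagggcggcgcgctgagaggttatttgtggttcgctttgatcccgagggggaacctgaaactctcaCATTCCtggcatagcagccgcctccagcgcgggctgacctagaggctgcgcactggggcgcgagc
F3 (chr3:121723287-121723536, plus strand): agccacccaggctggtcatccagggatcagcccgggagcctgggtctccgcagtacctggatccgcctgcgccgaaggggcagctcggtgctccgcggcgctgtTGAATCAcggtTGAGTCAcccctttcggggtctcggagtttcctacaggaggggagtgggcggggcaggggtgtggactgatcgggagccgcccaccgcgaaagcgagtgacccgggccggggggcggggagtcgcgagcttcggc

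Ankrd1 held 2 copies of the TEAD core, 210 and 123 bases before the start, and Cyr61 and Amotl2 held 1 each, 103 and 65 bases before it. The F3 window held no TEAD core and 2 AP-1 motifs, 146 and 135 bases before the start. Promoter windows of 300 bases, 250 before the start and 50 after it, could be matched for 25 of the 35 genes. The TEAD core, on either strand, was in 13 of the 25 (52.0%), against 16.6% of 27025 genes. By set, these were 8 of 15 targets and 5 of 10 parts, and the parts with the core were Yap1, Wwtr1, Tead3, Sav1 and Vgll3. The targets with it were Ankrd1, Cyr61, Amotl2, Axl, Crim1, Jub, Lats2 and Ptpn14, of which Ptpn14 was lower in spheroids at neither time. The lower targets printed above are examples taken from those with the core, so their having it is no result. The other matched targets had none, and targets lower in spheroids at 48 h were among these as well. A link between the core and lower levels in spheroids was not tested. The AP-1 motif was in 1 of 25 genes, F3, against 8.97% of all genes. The motifs can overlap at the letters TG, and no window of the 25 genes held both. A match is a stretch of sequence and no measured binding.

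The second question was whether the pathway's own parts differed with the targets. At 96 h, 7 of 13 parts were lower in spheroids, 3 were higher and 3 did not pass the test, with a median log2 change of -0.44, beside 73.8% of all genes called at that time. At 48 h, 8 were lower, 2 were higher and 3 did not pass, with a median of -0.64, beside 57.9% of all genes called. The share of parts called at 96 h was thus near that of all genes. Among the 10 core parts (Yap1, Wwtr1, Tead1 to Tead4, Lats1, Lats2, Stk3 and Stk4), 6 were lower and 2 higher at 96 h, and 7 lower and 1 higher at 48 h. Their median log2 changes were -0.45 and -0.64, beside -0.75 and -1.18 for the 21 targets other than Lats2. Single genes reached farther among the targets: their lowest log2 changes were -3.78 at 96 h and -5.02 at 48 h, and those of the 10 parts were -1.64 and -1.39, both for Lats2. No test was made of the difference between the sets.

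The co-activators themselves split. Yap1 stood at 189, 192 and 193 CPM in the 96 h spheroids, against 177, 168 and 174 CPM in the 96 h monolayers. At 48 h it had 194, 182 and 203 CPM in the 48 h spheroids, against 190.5, 182 and 179 CPM in the 48 h monolayers. All 12 libraries thus lay between 168 and 203 CPM, while Ctgf spanned 99.7 to 3810.0 CPM. Yap1 was 1.10-fold higher in spheroids at 96 h (adjusted p = 0.0386), without overlap, a call that missed the threshold under 12 of 21 alternatives (adjusted p up to 0.467). These included leaving out replicate 2 or 3 of the 96 h monolayers (adjusted p = 0.128 and 0.057), replicate 1, 2 or 3 of the 96 h spheroids (0.0548, 0.0734 and 0.0815) or replicate 2 of the 48 h monolayers (0.0558). At 48 h Yap1 was not called (log2 change 0.07 ± 0.0600 SE, adjusted p = 0.322). Under total-count scaling its log2 change was 0.18 (adjusted p = 0.019), and in limma on log2 FPKM 0.17 (adjusted p = 0.0189).

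Wwtr1, which encodes TAZ, had 109, 108 and 113 CPM in the 96 h spheroids, against 183, 182 and 174 CPM in the 96 h monolayers. At 48 h its levels were 92.2, 86.5 and 95.7 CPM in the 48 h spheroids, against 161, 159 and 161 CPM in the 48 h monolayers. The formats did not overlap, and Wwtr1 was 1.63-fold lower at 96 h and 1.75-fold lower at 48 h (adjusted p = 3.59e-09 and 1.26e-09). Per gene length, in FPKM, which divides fragments by transcript length and library size, Yap1 exceeded Wwtr1 in all groups. The Yap1 to Wwtr1 ratio of FPKM was 1.97 ± 0.039 in 96 h spheroids and 1.10 ± 0.047 in 96 h monolayers, and 2.41 ± 0.0043 in 48 h spheroids and 1.31 ± 0.049 in 48 h monolayers (SD, n = 3 each). No spheroid ratio overlapped a monolayer ratio.

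**Figure D3:**
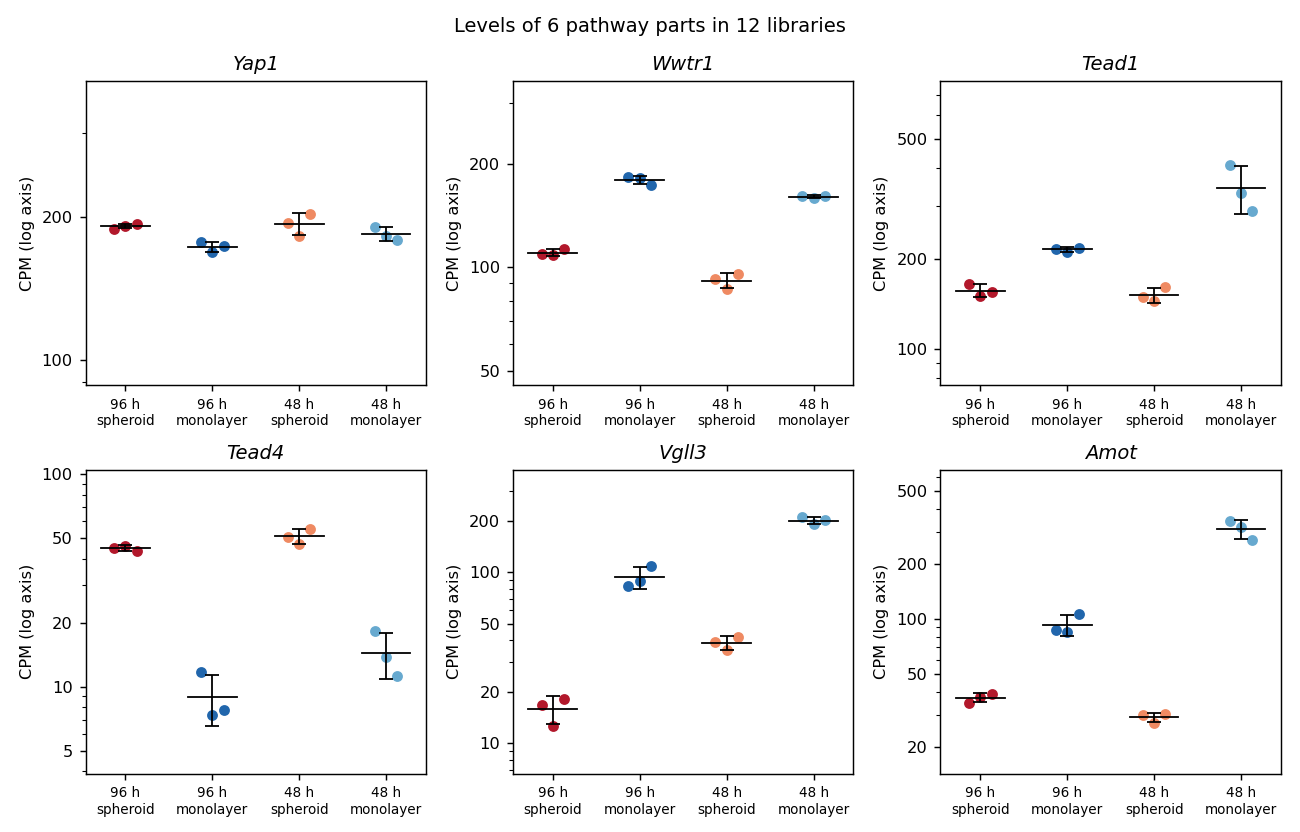
Levels of 6 pathway parts in CPM on log axes, with 1 point per library and bars for the mean and SD of 3 libraries in each of 4 groups. Yap1 stays between 168 and 203 CPM, Tead4 is higher in both spheroid groups, and Wwtr1, Tead1, Vgll3 and Amot are lower in them.

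The TEAD factors, which carry YAP and TAZ to DNA, did not move as one. Tead1 had 165, 149.7 and 155 CPM in the 96 h spheroids, against 216, 210.5 and 217 CPM in the 96 h monolayers, and 149, 144 and 160.4 CPM in the 48 h spheroids, against 411, 332 and 288.5 CPM in the 48 h monolayers. It was 1.37-fold lower at 96 h and 2.28-fold lower at 48 h, without overlap (adjusted p = 0.000305 and 4.46e-09). Tead2 had 42.4, 42.2 and 40.0 CPM in the 96 h spheroids, against 58.3, 55.5 and 57.0 CPM in the 96 h monolayers, and 44.3, 48.0 and 47.2 CPM in the 48 h spheroids, against 83.9, 81.4 and 89.2 CPM in the 48 h monolayers. It too was lower in every spheroid library, by 1.37-fold at 96 h and 1.83-fold at 48 h (adjusted p = 4.56e-06 and 1.27e-09). Tead3 had 19.6, 22.5 and 21.2 CPM in the 96 h spheroids, against 20.2, 18.5 and 23.6 CPM in the 96 h monolayers, which overlapped, and 17.6, 19.9 and 16.5 CPM in the 48 h spheroids, against 27.1, 27.6 and 29.2 CPM in the 48 h monolayers, which did not. It was not called at 96 h (adjusted p = 0.885) and was 1.55-fold lower at 48 h (adjusted p = 3.23e-05).

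Tead4 went the other way. It had 45.1, 46.2 and 43.5 CPM in the 96 h spheroids, against 11.8, 7.39 and 7.76 CPM in the 96 h monolayers, a 4.90-fold higher level (log2 change 2.29 ± 0.151 SE, adjusted p = 1.32e-10). At 48 h Tead4 had 50.8, 47.1 and 55.3 CPM in the 48 h spheroids, against 18.2, 13.8 and 11.3 CPM in the 48 h monolayers, a 3.56-fold higher level (log2 change 1.83 ± 0.141 SE, adjusted p = 2.27e-09). All spheroid libraries lay above all monolayer libraries. Per gene length, Tead4 was 14.5 ± 0.525 FPKM in 96 h spheroids and 3.09 ± 0.905 FPKM in 96 h monolayers, and 16.8 ± 1.51 FPKM in 48 h spheroids and 4.40 ± 1.16 FPKM in 48 h monolayers (SD, n = 3 each). Its share of the summed TEAD FPKM was 24.8% ± 0.43 in 96 h spheroids and 4.82% ± 1.2 in 96 h monolayers. At 48 h the share was 27.0% ± 1.8 in spheroids and 5.08% ± 0.94 in monolayers. The sum over the 4 factors was 58.5 ± 1.4 FPKM in 96 h spheroids, 63.6 ± 3.4 FPKM in 96 h monolayers, 62.0 ± 2.1 FPKM in 48 h spheroids and 85.8 ± 7.0 FPKM in 48 h monolayers. In FPKM, Tead2 was the most abundant in each group by mean, but Tead1 and Tead2 overlapped in 48 h monolayers (33.2 ± 6.48 and 37.9 ± 1.54).

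**Figure D4:**
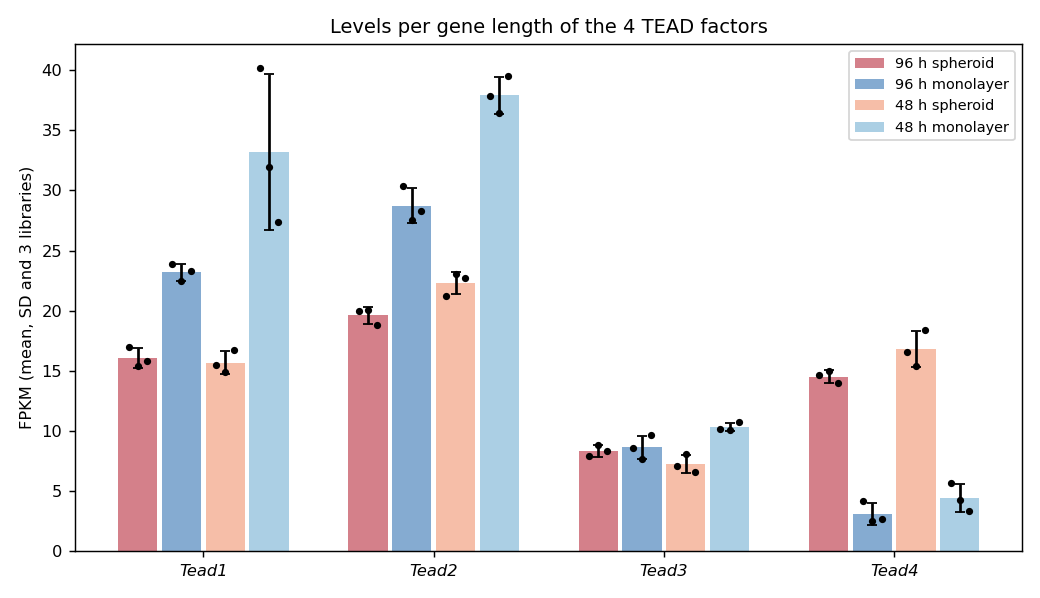
Levels per gene length (FPKM) of Tead1, Tead2, Tead3 and Tead4 in the 4 groups, as bars from 0 with the SD and 1 point for each of 3 libraries. Tead1 and Tead2 are lower in spheroids than in monolayers of the same time, and Tead4 is higher in spheroids at both times.

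Of the core kinases, Lats2 was more than 2-fold lower at both times, as given above, and Stk3, Stk4 and Lats1 differed by less. Stk3 (MST2) had 32.3, 27.4 and 31.3 CPM in the 96 h spheroids, against 45.9, 42.6 and 44.4 CPM in the 96 h monolayers, and 30.4, 28.03 and 26.7 CPM in the 48 h spheroids, against 44.5, 45.1 and 44.0 CPM in the 48 h monolayers. It was 1.46-fold lower at 96 h and 1.57-fold lower at 48 h, without overlap (adjusted p = 3.45e-06 and 1.15e-06). Stk4 (MST1) had 79.8, 75.7 and 75.6 CPM in the 96 h spheroids, against 74.0, 71.8 and 71.4 CPM in the 96 h monolayers, which was not called, and 69.1, 65.4 and 66.5 CPM in the 48 h spheroids, against 91.5, 91.7 and 85.6 CPM in the 48 h monolayers, a 1.34-fold lower level (adjusted p = 9.09e-06). Lats1 had 136, 121 and 132 CPM in the 96 h spheroids, against 184, 183 and 159.9 CPM in the 96 h monolayers, a 1.35-fold lower level (adjusted p = 9.51e-05). At 48 h Lats1 had 130.3, 113 and 124 CPM in the 48 h spheroids, against 151, 144 and 125 CPM in the 48 h monolayers, which overlapped and missed the threshold (log2 change -0.19 ± 0.0826 SE, adjusted p = 0.052). Several alternatives brought that value under 0.05, among them leaving out replicate 3 of the 48 h monolayers (adjusted p = 0.00472), replicate 1 of the 48 h spheroids (0.0361) or replicate 3 of the 96 h monolayers (0.0371).

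Upstream, Nf2, the gene of the membrane-linked activator merlin, had 128, 138 and 129.9 CPM in the 96 h spheroids, against 108, 103 and 114.5 CPM in the 96 h monolayers, a 1.21-fold higher level without overlap (adjusted p = 0.00166). In limma on log2 FPKM that difference missed the threshold (log2 change 0.17, adjusted p = 0.176). At 48 h Nf2 had 118, 109.7 and 112 CPM in the 48 h spheroids, against 109, 109.8 and 92.5 CPM in the 48 h monolayers, which overlapped and was not called (adjusted p = 0.136). It was called higher at that time under total-count scaling (log2 change 0.24, adjusted p = 0.0117) and in limma (0.33, 0.0201). Sav1, the scaffold of the MST kinases, was not called at 96 h (adjusted p = 0.0546) and was 1.27-fold higher at 48 h (adjusted p = 0.000675).

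The largest falls among the 13 parts were in Amot and Vgll3. Amot, the founding angiomotin, had 34.9, 37.6 and 39.0 CPM in the 96 h spheroids, against 86.7, 85.4 and 107 CPM in the 96 h monolayers, a 2.51-fold lower level (log2 change -1.33 ± 0.0997 SE, adjusted p = 8.86e-10). At 48 h it had 29.9, 27.1 and 30.3 CPM in the 48 h spheroids, against 346, 319 and 272 CPM in the 48 h monolayers, a 10.7-fold lower level (log2 change -3.42 ± 0.105 SE, adjusted p = 5.09e-15). The 48 h monolayers stood far above the other groups. Vgll3, a cofactor that competes for TEADs, had 16.7, 12.6 and 18.3 CPM in the 96 h spheroids, against 83.2, 88.7 and 109 CPM in the 96 h monolayers, a 5.88-fold lower level (adjusted p = 9.04e-13). Its levels at 48 h were 39.3, 34.98 and 41.9 CPM in the 48 h spheroids, against 210.3, 192 and 202 CPM in the 48 h monolayers, 5.20-fold lower (adjusted p = 1.34e-12). Neither gene overlapped between formats, and the changes of both lay within the range of the targets. The 250 bases before the Vgll3 start are shown as an example of a part with the TEAD core, which lay 63 bases before the start. Yap1 and Sav1, lower in spheroids at neither time, held the core too. A link between the core and these changes was not tested.
Vgll3 (chr16:65814939-65815188, plus strand): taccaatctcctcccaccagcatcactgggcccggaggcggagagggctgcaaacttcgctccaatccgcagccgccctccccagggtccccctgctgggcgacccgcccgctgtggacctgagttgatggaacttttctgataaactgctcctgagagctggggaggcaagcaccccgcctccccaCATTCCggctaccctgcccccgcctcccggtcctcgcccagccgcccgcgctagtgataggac

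The third comparison was of 96 h with 48 h in each format. In monolayers, 14 of 22 targets were lower at 96 h, 4 were higher and 4 did not pass, with a median log2 change of -0.53. Of all genes, 61.3% changed in that comparison, with 31.3% lower and 30.1% higher. In spheroids, 8 targets were lower, 3 were higher and 11 did not pass, with a median of -0.12, beside 39.8% of all genes changed, with 20.5% lower and 19.3% higher. The 2 times did not overlap for 15 targets in spheroids and 17 in monolayers, beside 53.8% and 63.8% of all genes. Among the 13 parts, monolayers had 7 lower and 2 higher at 96 h, and spheroids had 2 lower and 4 higher. By group mean, 15 of the 22 targets and 7 of the 13 parts were highest in 48 h monolayers. The lowest mean was in 96 h spheroids for 14 targets and in 48 h spheroids for 7 parts. Highest and lowest groups were not counted over all genes, so these counts have no share to be set against. The summed level of fibroblast markers was also lower at 96 h than at 48 h in both formats, with 12 of 12 markers lower in spheroids (median log2 change -1.47) and 10 of 12 in monolayers (-1.63), and their part in these changes was not tested.

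A group of 8 targets fell with time in monolayers and was not called in spheroids: Ctgf, Cyr61, Amotl1, Amotl2, Crim1, Dock5, Nuak2 and Rbms3. For Dock5 the time change was not called different between formats in edgeR (log2 difference 0.34, adjusted p = 0.0716). Shares of all genes with this or the other patterns over both formats were not computed. Ctgf was 2.39-fold lower in 96 h than in 48 h monolayers (adjusted p = 2.44e-09), and Cyr61 was 3.33-fold lower (adjusted p = 6.09e-13). In spheroids their log2 changes were -0.15 ± 0.0991 SE (adjusted p = 0.246) and -0.13 ± 0.0695 SE (adjusted p = 0.153). A fit of the 6 spheroid libraries alone gave -0.17 and -0.14, with adjusted p = 0.0242 and 0.0229. Nuak2 was 2.26-fold and Amotl2 1.79-fold lower in 96 h monolayers, and the other 4 were lower by 1.29-fold (Amotl1) to 1.46-fold (Rbms3). The fall of Amotl1 missed the threshold under total-count scaling (log2 change -0.20, adjusted p = 0.066) and in limma (-0.18, 0.112).

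In both formats, 5 targets fell: Jub, Axl, F3, Myof and Ccdc80. Ccdc80 was 3.73-fold lower in 96 h spheroids and 4.75-fold lower in 96 h monolayers (adjusted p = 1.01e-07 and 1.85e-10). F3 was 2.84-fold lower in 96 h monolayers (adjusted p = 2.34e-12) but 1.16-fold lower in 96 h spheroids (adjusted p = 0.0147). The spheroid change of F3 missed the threshold with 96 h spheroid replicate 2 dropped (log2 change -0.18, adjusted p = 0.0772) or 48 h spheroid replicate 3 dropped (-0.20, 0.0641). Nt5e and Asap1 rose in both formats. Nt5e rose 1.74-fold in spheroids and 1.80-fold in monolayers, and the spheroid rise of Asap1 (1.22-fold, adjusted p = 0.00992) was lost with 48 h spheroid replicate 2 dropped (log2 change 0.23, adjusted p = 0.0546).

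Ankrd1 and Gadd45a moved in opposite directions in the 2 formats. Ankrd1 rose 2.26-fold with time in spheroids (adjusted p = 2.99e-08) and was 2.93-fold lower in 96 h monolayers (adjusted p = 2.51e-12). Gadd45a was 1.79-fold lower in 96 h spheroids (adjusted p = 1.67e-06) and rose 2.43-fold in monolayers (adjusted p = 1.71e-10). Fjx1 and Foxf2 fell in spheroids, by 2.39-fold and 3.20-fold, and were not called in monolayers. Ptpn14 rose 1.28-fold in monolayers. Lats2 and Arhgef17 were called with time in neither format; for Lats2 the log2 change in monolayers was 0.14 (adjusted p = 0.0704), and with 48 h monolayer replicate 1 left out it was 0.20 (adjusted p = 0.0108).

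Among the parts, Tead1, Tead2, Tead3 and Tead4 each fell in monolayers, by 1.60-fold, 1.49-fold, 1.34-fold and 1.57-fold, and none was called in spheroids. For Tead4 the monolayer libraries of the 2 times overlapped. Its time change was not called different between formats in edgeR (log2 difference 0.46, adjusted p = 0.0751). Vgll3 fell in both formats, 2.43-fold in spheroids and 2.148-fold in monolayers. Amot was 3.35-fold lower in 96 h monolayers (adjusted p = 2.22e-11) and 1.27-fold higher in 96 h spheroids (adjusted p = 0.0167). Stk4 was likewise lower in 96 h monolayers (1.24-fold) and higher in 96 h spheroids (1.15-fold). Wwtr1 rose in both formats, 1.21-fold in spheroids and 1.12-fold in monolayers. Lats1 rose 1.25-fold in monolayers, Nf2 rose 1.16-fold in spheroids, Sav1 fell 1.15-fold in spheroids, and Yap1 and Stk3 were called in neither format.

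Several of these small changes missed the threshold under an alternative, mostly with 1 library left out. The rise of Wwtr1 in monolayers did so without replicate 2 of the 48 h monolayers (log2 change 0.16, adjusted p = 0.0576) and without replicate 1 (0.15, 0.0659) or 2 (0.15, 0.0558) of the 96 h monolayers. In spheroids, Amot did so without replicate 2 at 48 h (0.31, 0.0697) or replicate 3 at 96 h (0.32, 0.0598), and Stk4 without replicate 1 at 96 h (0.18, 0.0563). The monolayer fall of Stk4 did so under total-count scaling (-0.14, 0.0691) and in limma (-0.13, 0.0621). In limma, Amot (0.28, 0.0513) and Nf2 (0.21, 0.157) in spheroids missed it too, as did Wwtr1 in monolayers without a filter (0.15, 0.0795). Nf2 did so without replicate 2 (0.20, 0.0647) or 3 (0.22, 0.0537) at 48 h or replicate 2 at 96 h (0.19, 0.0774). Sav1 in spheroids had log2 changes from -0.25 to -0.15 and adjusted p up to 0.172 when single libraries were left out, and it missed the threshold without replicate 1 or 3 at 48 h, any of the 3 replicates at 96 h, or replicate 2 of the 48 h monolayers.

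**Figure D5:**
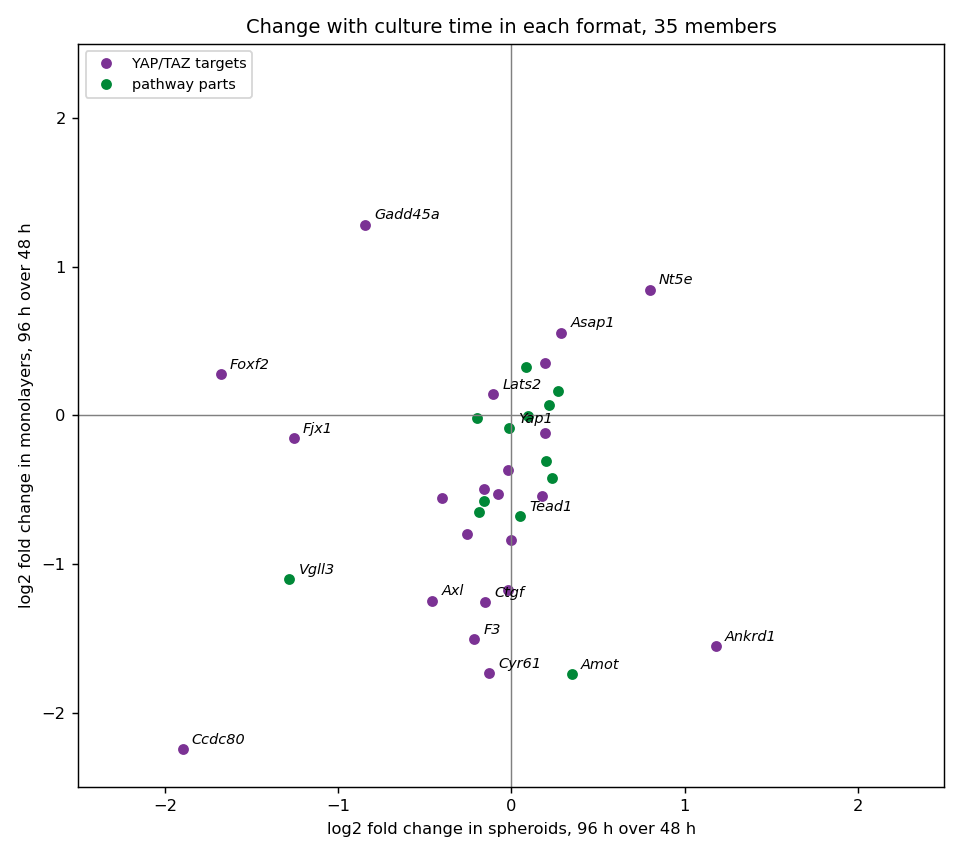
Log2 fold change of 96 h over 48 h in spheroids (horizontal) and in monolayers (vertical) for the 22 targets and 13 parts, 1 point per gene. Ctgf and Cyr61 lie low near the vertical line, Gadd45a lies in the upper left, and Ankrd1 and Amot lie in the lower right.

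The fourth comparison was of the format difference at 96 h with that at 48 h, tested as the interaction of format and time. It passed the threshold for 16 of 22 targets, with 12 positive and 4 negative, and for 5 of 13 parts, all positive. A positive value means that the spheroid-to-monolayer log2 change was higher, or less negative, at 96 h. Among all genes, 53.3% passed, with 26.9% positive and 26.4% negative. Ankrd1 had the largest positive value (log2 change 2.73 ± 0.122 SE, adjusted p = 2.97e-12), followed by Amot (2.09 ± 0.143 SE, adjusted p = 9.79e-10) and Cyr61 (1.60 ± 0.0976 SE, adjusted p = 1.96e-10). Ctgf had 1.11 (adjusted p = 2.1e-06), so its format difference was also smaller at 96 h. The 4 negative targets were Gadd45a, Foxf2, Fjx1 and Lats2, whose format differences were larger at 96 h. For Yap1 the interaction was 0.07 ± 0.0847 SE (adjusted p = 0.495).

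Scaling by total count alone moved the interaction of all genes by a median of -0.19, and the share of positive calls from all genes to 34.2%, against 50.5% with TMM. Under that scaling the all-gene median of the format difference at 48 h moved by 0.11 and that of the time change in monolayers by 0.17, with 65.1% and 66.2% of calls higher, against 54.5% and 49.0% with TMM. Under total-count scaling the targets' median log2 change in format at 48 h was -1.18, and that of the time change in monolayers was -0.36.

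The wider pathway was read from 24 other Hippo genes, of which 22 passed the filter. At 96 h, 14 were lower in spheroids and 4 were higher, among them Rassf6, Taok2 and Wwc1, beside 36.5% and 37.3% of all genes. The median log2 change of the 22 was -0.37. At 48 h, 11 were lower and 4 higher (Limd1, Rassf6, Taok2 and Wwc1), beside 26.4% and 31.6% of all genes. The median of the 22 was then -0.19. The largest changes at 96 h were in the giant cadherins that form the upstream receptor and ligand pair. Dchs1 had 2.50 ± 0.151 CPM in spheroids and 22.1 ± 1.16 CPM in monolayers (SD, n = 3 each), 8.76-fold lower (adjusted p = 1.13e-11), and Fat4 had 2.44 ± 0.644 CPM in spheroids and 18.3 ± 2.31 CPM in monolayers, 7.52-fold lower (adjusted p = 8.07e-09). At 48 h the largest were in kinases: Csnk1e, a casein kinase that marks YAP for degradation, was 2.75-fold lower, and Stk38l, a LATS relative, 2.76-fold lower. The TEAD cofactor Vgll1 had 7 counts over each spheroid group and 0 over each monolayer group, and Vgll2 had 0 counts in all groups.

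A further 20 genes known to respond to YAP and TAZ, none of them among the 22, had 6 higher and 12 lower in spheroids at each time. Their median log2 changes were -0.95 at 96 h and -1.04 at 48 h. Over all genes, 37.3% were higher and 36.5% lower at 96 h, and 31.6% and 26.4% at 48 h. The largest change at 96 h was in Birc5, an inhibitor of apoptosis that peaks in dividing cells. Birc5 had 77.5 ± 4.57 CPM in spheroids and 5.60 ± 0.250 CPM in monolayers (SD, n = 3 each) and was 13.9-fold higher (adjusted p = 5.57e-15). At 48 h the largest were Edn1, the vasoconstrictor endothelin, 8.94-fold lower, and the aggrecanase Adamts5, 8.08-fold lower. All 8 proliferation genes measured were higher in spheroids at each time, with median log2 changes of 4.17 at 96 h and 0.95 at 48 h. The part of proliferation in the rise of Birc5 was not tested.

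The targets of SRF and its actin-sensed cofactors MRTF, which share Ctgf and Cyr61 with YAP and TAZ as known targets, were lower as well. Of 15 genes, 10 were lower in spheroids at 96 h and 15 at 48 h, and none was higher at either time. Of all genes, 36.5% were lower at 96 h and 26.4% at 48 h. The median log2 changes of the 15 were -0.55 at 96 h and -1.74 at 48 h. Tagln, an actin-binding protein of contractile cells, had 4.76 ± 0.868 CPM in spheroids and 78.7 ± 32.5 CPM in monolayers at 96 h, and 12.6 ± 1.54 CPM in spheroids and 708 ± 74.5 CPM in monolayers at 48 h (SD, n = 3 each). It was 16.6-fold and 56.2-fold lower, with Myl9, a myosin light chain, 15.3-fold lower at 96 h and Cnn1, calponin, 29.1-fold lower at 48 h. In monolayers all 15 were lower at 96 h than at 48 h, beside 31.3% of all genes. The interaction was positive for 13 of 15, beside 26.9% of all genes. The summed level of the list was 10400 to 12400 CPM in the other 3 groups and 25600 to 28800 CPM in 48 h monolayers.

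Markers of cells that a mammary culture could hold also differed between formats. For comparison, 36.5% of all genes were lower and 37.3% higher in spheroids at 96 h, and 26.4% and 31.6% at 48 h. Of 12 fibroblast markers, 8 were lower and 3 higher (Col3a1, Col6a1 and Dpt) in spheroids at 96 h. At 48 h, 7 were lower and 4 higher (Col6a1, Dcn, Pdgfra and Dpt). The largest changes were in Fap (-3.05) and Pdgfra (-2.88) at 96 h and in Postn (-3.09) and Thy1 (-2.82) at 48 h, all as log2 changes. Of 10 luminal markers, 9 were higher at 96 h, and 8 were higher and 2 lower (Krt8 and Krt18) at 48 h, with Elf5, a factor of milk-forming cells, 23.5-fold and 23.0-fold higher. Of 10 basal and myoepithelial markers, 4 were higher (Krt5, Krt14, Trp63 and Oxtr) and 6 lower at each time. The 6 lower ones included the contractile genes Acta2, Myh11, Cnn1 and Mylk. Of 8 endothelial markers, 7 were lower in spheroids at 96 h and Vwf was higher, with a median log2 change of -3.01. At 48 h 3 were lower (Cdh5, Kdr and Emcn) and 2 higher (Vwf and Esam). Beside 20.5% of all genes, all 8 endothelial markers were lower in 96 h than in 48 h spheroids. Their summed level was 27.5 to 34.5 CPM in 96 h spheroids, 73.7 to 79.3 CPM in 96 h monolayers, 58.6 to 69.8 CPM in 48 h spheroids and 46.3 to 63.2 CPM in 48 h monolayers. Of 5 pericyte and smooth muscle markers that passed the filter, 4 were lower in spheroids at 96 h (Cspg4, Des, Myh11 and Abcc9), the same ones but Abcc9 at 48 h, and Notch3 was higher at both times. Of 4 immune markers that passed it, Cd68 and Lyz2 were lower and Itgam higher at 96 h, and Cd68 was higher at 48 h. Immune marker sums lay between 23.5 and 50 CPM and pericyte marker sums between 102 and 268 CPM over the groups. In 96 h spheroids nearly all of the pericyte sum was Notch3 (mean 98.2 CPM). Adipocyte marker sums were 274 to 305 CPM in 48 h spheroids and 30.8 to 78.6 CPM in the other groups. Nearly all of the 48 h spheroid sum was Fabp4 (mean 284 CPM), with Plin1 at 2.0 CPM and each other adipocyte marker lower. Of the 6 adipocyte markers, 2 passed the filter. The part of these markers in the pathway's differences was not tested.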

How the data were processed

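Total RNA from 12 cultures was sequenced as Illumina TruSeq mRNA libraries, per the labels' protocols. Reads were processed with RSEM 1.2.30, Bowtie 1.0.1 and bcl2fastq 2.15.0 for build mm9, per the submitters' processing notes, and no strand setting is given. Deposited by the authors were RSEM expected counts rounded to whole numbers, log2 values of FPKM plus 1, and mm9 gene symbols for each row.

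From the counts, genes were kept by filterByExpr (minimum count 10, minimum total 15), libraries were scaled by TMM, and 1 quasi-likelihood model with group as its only term was fitted to all 12 libraries in edgeR 4.0.16 (R 4.3.3). Tests were 2-sided, with Benjamini-Hochberg adjustment over all 13951 genes in each contrast. An SE is the log2 change divided by the square root of F. FPKM was recovered from the log2 values for comparisons between genes. The pipeline was tested on simulated data. Reads carried no molecular identifiers, so floors cover counting error only.

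The members and gene lists were chosen with earlier results of these data known. All members are accounted for, and values in every library are given for core genes named in advance and for the 5 largest changes of each contrast. Of the lists, the 2 largest changes in each format contrast and the genes in counts of 5 or fewer are named, except some not reported here. Alternatives were other scalings, filters, DESeq2 1.42.0, limma 3.58.1, a replicate block, subsets and leaving out each library.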

Additional observations from a re-analysis of the deposited data

Results flagged for a closer look

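The format difference at 96 h differed from that at 48 h, by the test of the interaction in edgeR, for 21 of the 35 genes, against 53.3% of all genes tested. Values are the spheroid-to-monolayer log2 change at 96 h minus that at 48 h. Among the targets, the positive values were 2.73 for Ankrd1, 1.60 for Cyr61, 1.29 for F3, 1.16 for Nuak2 and 1.11 for Ctgf. Smaller positive values were 0.84 for Amotl2, 0.79 for Axl, 0.72 for Rbms3, 0.54 for Jub, 0.45 for Crim1, 0.35 for Amotl1 and 0.31 for Arhgef17. The negative values were -2.13 for Gadd45a, -1.96 for Foxf2, -1.10 for Fjx1 and -0.25 for Lats2. Among the parts, all values past the threshold were positive, with 2.09 for Amot, 0.73 for Tead1, 0.65 for Tead3, 0.51 for Stk4 and 0.41 for Tead2.

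The smallest of these did not hold under every alternative. Amotl1 missed the threshold under 9 alternatives, and Arhgef17 and Lats2 under 12 each, with adjusted p up to 0.379, 0.407 and 0.125. Leaving out 1 library was enough for each: the values then ran from 0.25 to 0.46 for Amotl1, from 0.22 to 0.41 for Arhgef17 and from -0.30 to -0.21 for Lats2. Crim1 missed it under total-count scaling (0.26, adjusted p = 0.0797) and in limma on log2 FPKM (0.25, adjusted p = 0.113).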

How the results depend on the processing

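Of 125 calls among the 35 genes over the 5 contrasts, 106 kept their side of the threshold under every alternative run, 19 were lost under at least 1, and none changed sign. The counts of lower targets stayed within 1.5 times under every alternative: with 1 library left out they were 15 to 17 at 96 h and 19 to 20 at 48 h. Small counts moved. Parts higher at 96 h were 1 in limma on log2 FPKM, and parts higher at 48 h were 4 in limma and 4 under total-count scaling. Targets higher at 48 h were 1 in a fit of the 6 libraries compared, and 1 to 2 with 1 library left out, the lower count being without replicate 3 of the 48 h monolayers. Parts higher at 96 h than at 48 h in monolayers were 1 without a filter, and 1 to 2 with 1 library left out. In spheroids over time, targets higher were 5 in the fit of 6 libraries and 2 to 5 with 1 library left out, parts higher were 2 in limma, and parts lower were 1 without a filter, 4 in the fit of 6 libraries and 1 to 3 with 1 library left out. Negative interactions among parts were 1 under upper-quartile scaling and with a minimum count of 50, 2 under total-count scaling and in limma, and 0 to 2 with 1 library left out. The cause of these moves was not tested. Signs turned for values near 0: the median interaction of the parts was -0.036 under total-count scaling and -0.074 in limma. The time change of Yap1 in monolayers was 0.084 and 0.082 under the same alternatives. Its interaction was -0.0056 under upper-quartile scaling, -0.12 under total-count scaling and -0.11 in limma, and its time change in spheroids ran from -0.051 to 0.026 with 1 library left out. With CPM in place of FPKM, the Tead4 share of the TEAD sum was 17.01% in 96 h spheroids and 2.97% in 96 h monolayers, and 19.15% in 48 h spheroids and 3.03% in 48 h monolayers. In limma on log2 FPKM, 65.2% of all calls were higher in format at 48 h and 65.2% in time in monolayers, and 35.6% of interactions were positive. Replicate numbers did not pair the libraries: deviations of same-numbered libraries correlated from -0.11 to 0.088 over 18 pairs, and of others from -0.12 to 0.12. With a replicate block, lower targets were 16 at 96 h and 20 at 48 h, and lower parts 7 and 9. Depth limits Foxf2 most.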
